A study of Temora longicornis with 12 samples.

Results

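Copepods of the species Temora longicornis held at 14 °C for 4 days and then moved to 17 °C for a final 24 h, called the acute group, were compared with control copepods held at 14 °C throughout. Each group gave 3 libraries of RNA from whole adults, so 6 of the 12 libraries of the series entered the comparison. The other 6 came from a sustained group, brought to 17 °C over 24 h and kept there, and from a recovery group, warmed in the same way and returned to 14 °C for the last 24 h. All groups were exposed for 120 h in dark, aerated vessels, and 3 of the 4 vessels of each group were sequenced. Members of the comparison were the 40943 of 44985 assembled transcripts that passed a low-count filter in the fit of all libraries. A repeat without control replicate 2, a library that stood apart from the others, had 42640. The filter asks for counts in as many libraries as the smallest group has, 3 with all libraries and 2 in the repeat. The labels name no strain, sex or number of animals per library.

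Temora longicornis is a small planktonic crustacean of coastal seas whose body temperature follows that of the water. In crustaceans, as in other animals, warming beyond the accustomed range is known to induce chaperone genes such as those of the heat-shock protein families within hours, while longer exposure can shift genes of metabolism, reproduction and the cuticle. The question put by the comparison was what a single day of moderate warming changed in the transcriptome. The deposited table does not pair its transcript identifiers with gene names, so neither chaperones nor markers of a tissue could be looked up, and no function is given to any transcript here. Whole animals hold every tissue, so a shift in the proportion of a cell type and a change of RNA per cell cannot be told apart.

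The total count per library was 19362611 to 22697998 in the acute group and 11582848 to 26630465 in the control group, with the lowest total in control replicate 2. In these 6 libraries 42151 to 43952 transcripts had at least 1 count. Differences in composition between replicates were large. The transcript TRINITY_DN157064_c6_g3_i1, chosen as the one with the largest share of counts, took 0.00986%, 17.9% and 25.4% of the counts in acute replicates 1, 2 and 3, and 26%, 25.2% and 0.00387% in control replicates 1, 2 and 3. The 95% Wilson intervals of these shares reach at most 0.025 percentage points to either side and cover counting error only. Each group thus held 1 library in which this transcript was almost missing and 2 in which it was the most abundant, and the groups overlapped over nearly the whole range.

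On average, libraries of the same group were not nearer to each other than to libraries of the other group. Levels are given as CPM, counts scaled to the total of a library after TMM correction for composition. The Spearman correlation of log2 CPM was 0.91 to 0.919 between acute libraries and 0.912 to 0.935 between acute libraries and control replicates 1 and 3. Control replicates 1 and 3 correlated with each other at 0.943. Control replicate 2 correlated with them at 0.825 and 0.822, and with acute replicates 1, 2 and 3 at 0.804, 0.816 and 0.886. The closest partner of this control library was therefore an acute one. The mean distance between libraries of different groups was 1.01 log2 units per transcript (root mean square), against 1.03 within groups (one-sided exact permutation p = 0.6, where 0.1 is the smallest that this design allows). These distances were 0.856 and 0.859 without control replicate 2 (exact permutation p = 0.5).

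**Figure D1:**
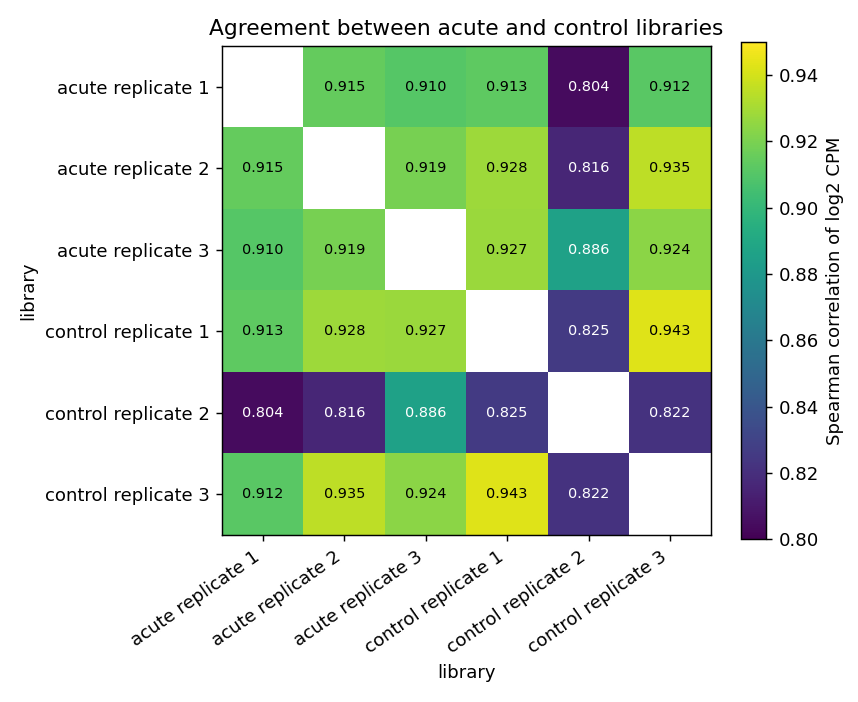
Spearman correlation of log2 CPM over the 40943 tested transcripts for each pair of the 3 acute and 3 control libraries, in rows and columns, with colour from 0.8 to 0.95. Control replicate 2 has the lowest values, from 0.804 to 0.886, and the pair of control replicates 1 and 3 the highest, 0.943.

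Replicates differed more among all 3 controls than among the acute libraries, and less once control replicate 2 was left out. The SD of log2 CPM within a group had a median over transcripts of 0.367 in the acute group and 0.447 in the control group (n = 3 each). It was 0.231 in the control group without replicate 2 (n = 2), where an SD tends to come out lower than over 3 libraries. By pairs, the median absolute log2 difference was 0.327 between control replicates 1 and 3, and 0.39 to 0.458 between acute libraries. Control replicate 2 was the highest or the lowest of the 6 libraries for 50.7% of transcripts, where an even spread gives 33.3%. Acute replicate 1 followed with 41.6%, and acute replicate 3 was at an extreme least often, with 19.9%.

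No transcript passed the test between acute and control copepods when all libraries were used. The quasi-likelihood test of edgeR, with Benjamini-Hochberg adjustment over the 40943 transcripts, called 0 (0% of those tested, lowest adjusted p = 0.74), whereas DESeq2 called 3 and edgeR's exact test 2. At an unadjusted p under 0.05 stood 1596 transcripts, 3.9% of those tested, where an even spread of p-values would give 5%. Of these, 845 (2.06%) were higher and 751 (1.83%) lower in the acute group, and with scaling by library totals alone 534 were higher and 226 lower. The 1596 became 797 without acute replicate 1, 3141 without acute replicate 3 and 760 with scaling by library totals alone. In the repeat without control replicate 2 the quasi-likelihood test called 1 of 42640 transcripts (0.00235%), and 2128 (4.99%) stood at an unadjusted p under 0.05, with 1252 higher and 876 lower. With scaling by library totals alone that split was 783 higher and 253 lower, and 1382 stood at an unadjusted p under 0.05 when control replicate 1 was left out as well. Both sets had 813 transcripts in common, which was 50.9% of the 1596 and 38.2% of the 2128. All 813 had the same direction in both. The fits share every library except control replicate 2, so a change of direction was hardly possible.

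**Figure D2:**
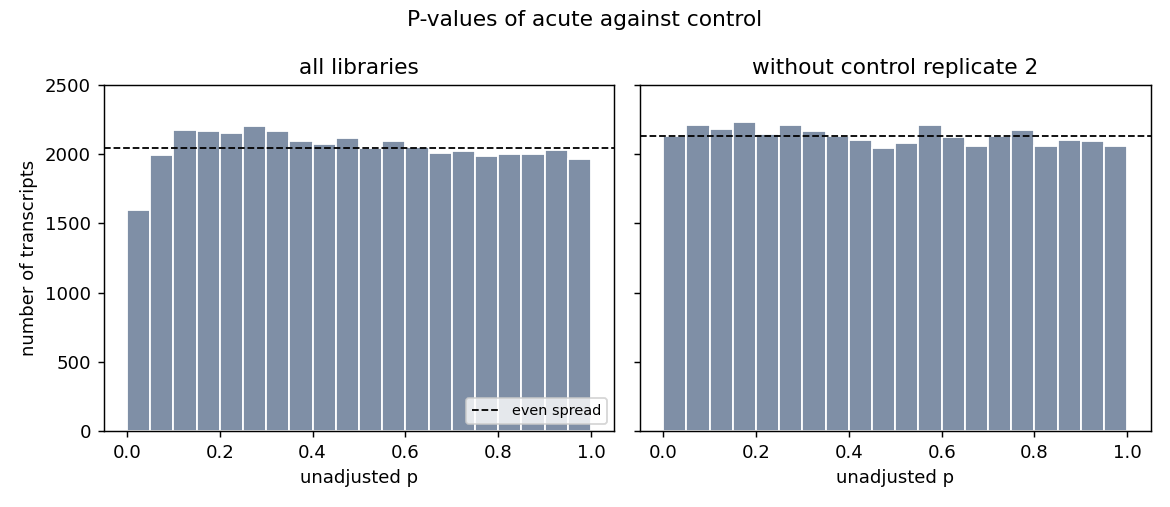
Number of transcripts (vertical axis) in each bin of 0.05 of the unadjusted p-value (horizontal axis) for acute against control, with all libraries and without control replicate 2. The dashed line marks an even spread. The first bin holds 1596 transcripts with all libraries, below the line at 2047, and 2128 without control replicate 2, against 2132.

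How narrowly the difference was bounded depended on the level of a transcript. The 95% interval of the log2 difference lay within 2-fold of no change for 85.2% of the 1129 transcripts with a mean of 100 CPM or more, for 80.8% of the 7828 between 10 and 100 CPM, for 37.3% of the 18975 between 1 and 10 CPM and for 0.738% of the 13011 under 1 CPM. The same interval lay within 4-fold for 96.2%, 95.6%, 91.2% and 51.6% of these classes, in the same order. For well-expressed transcripts a change of more than 4-fold was thus outside nearly every interval, and for those under 1 CPM it was often inside. These intervals are not adjusted for the number of transcripts, so they do not show what the adjusted test could detect. TRINITY_DN191068_c4_g2_i10, described below, had an interval of 1.13 to 2.43 on the log2 scale and did not pass (edgeR adjusted p = 0.74). The median size of the fitted log2 difference was 0.136 in the class of 100 CPM or more and 0.462 in the class under 1 CPM, beside median SEs of 0.18 and 0.68.

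**Figure D3:**
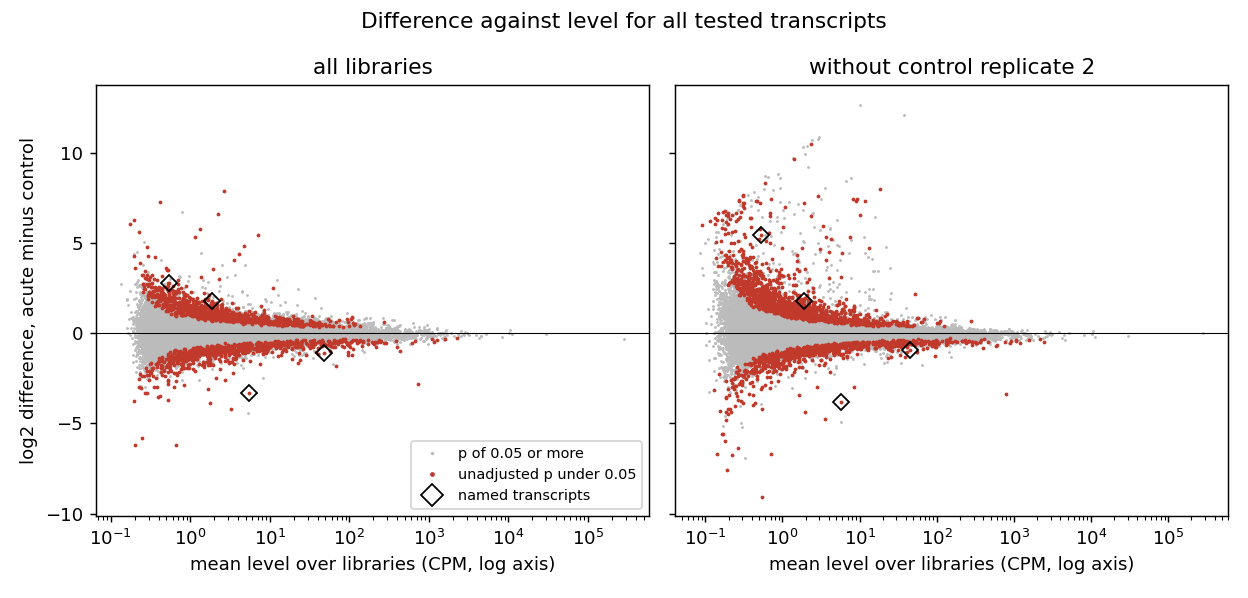
Fitted log2 difference, acute minus control, against mean level (CPM, log axis) for every tested transcript, with all libraries and without control replicate 2. Red points have an unadjusted p under 0.05 and diamonds mark the 4 named transcripts. The cloud narrows with level, and without control replicate 2 a spray of large positive differences appears, most of it in grey.

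Among the most abundant transcripts, those with a small p were mostly lower in the acute group. Of the 1129 transcripts of 100 CPM or more, 48 (4.25%) had an unadjusted p under 0.05, beside 3.9% of all tested. Of these 48, 41 were lower and 7 higher in acute copepods, and none passed the adjusted test (edgeR, lowest adjusted p = 0.99). Without control replicate 2, 17 of the 41 had an unadjusted p under 0.05. In the sustained group 21 of the 41 were lower than in the recovery group, beside 56.1% of all transcripts of 100 CPM or more. Each of the 41 belonged to a different assembled gene, their median log2 difference was -0.49, and for 30 of them the groups did not overlap, as for 1028 (64.4%) of the 1596 transcripts of any level at such a p. In the same class as a whole, 57.3% of transcripts were lower in the acute group, 65.4% without control replicate 2 and 44% with scaling by library totals alone, so the direction for the whole class turned with the scaling. The split ran the other way under 1 CPM, where 286 were higher and 172 lower. Lower transcripts outnumbered higher ones among the abundant at an unadjusted p under 0.05 in each of 16 other settings, with shares from 60% to 92.9%. The lowest share came with scaling by library totals alone, where 3 were lower and 2 higher. The number of lower ones itself was 14 without acute replicate 1, 11 without acute replicate 2 and 107 without acute replicate 3. Library by library, the median deviation of this class from the mean of the 6 libraries was -0.04, -0.03 and 0.05 on the log2 scale in acute replicates 1, 2 and 3, and 0.09, -0.06 and 0.07 in control replicates 1, 2 and 3. Control replicate 2 was the lowest of all, below every acute library, so the groups overlapped.

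Among transcripts that were higher after the day of warming, TRINITY_DN191068_c4_g2_i10 had the smallest unadjusted p. It was at 4.43, 3.83 and 2.98 CPM in the acute libraries and at 1.08, 1.05 and 1.13 CPM in the control libraries. The groups did not overlap, and all 3 controls, replicate 2 included, lay close together. Its log2 difference was 1.78 ± 0.30 (SE; edgeR adjusted p = 0.74), and 1.76 ± 0.35 without control replicate 2 (adjusted p = 0.89). It was called by DESeq2 (adjusted p = 0.0041) and edgeR's exact test (adjusted p = 0.016) with all libraries, and by DESeq2 without control replicate 2 (adjusted p = 0.034). The sustained libraries were at 1.19, 1.18 and 1.21 CPM and the recovery libraries at 1.18, 1.63 and 1.48 CPM, so no library outside the acute group reached the lowest acute value. The assembled gene has another isoform in the table, TRINITY_DN191068_c4_g2_i4, which went the opposite way. That isoform averaged 1.01 ± 0.08 CPM in acute copepods and 1.91 ± 1.16 CPM in controls (SD, n = 3 each). Its log2 difference was -0.93 ± 0.49 (SE; edgeR adjusted p = 0.99), from counts of 28, 23 and 21 in acute libraries and 81, 18 and 27 in control libraries, which overlap. Reads shared by both isoforms may have been divided between them or dropped by the counting.

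TRINITY_DN117508_c0_g2_i1 had the smallest unadjusted p among transcripts that were lower in acute copepods. Its level was 32, 25.5 and 34.1 CPM in the acute libraries and 54.1, 79.5 and 60.9 CPM in the control libraries. Every acute library lay below every control, and control replicate 2 was the highest. The log2 difference was -1.08 ± 0.18 (SE; edgeR adjusted p = 0.74), and -0.91 ± 0.18 without control replicate 2 (adjusted p = 0.89). Only DESeq2 among the tests tried called it, with all libraries (adjusted p = 0.0097) and without control replicate 2 (adjusted p = 0.036). The sustained libraries were at 55, 61.8 and 49.7 CPM and the recovery libraries at 47.1, 39.3 and 38.3 CPM. The acute level was thus below that of all other libraries, with the lowest recovery library the next in order.

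Without control replicate 2, TRINITY_DN188408_c1_g11_i1 had the smallest p of all and was the single transcript that passed edgeR's quasi-likelihood test. It was at 0.534, 1.51 and 1.14 CPM in the acute libraries, from 14, 33 and 26 counts, and at 15.7, 1.86 and 13.6 CPM in control replicates 1, 2 and 3, from 394, 23 and 350 counts. The library left out of this fit, control replicate 2, lay just above the highest acute library and far below the other controls. The log2 difference was -3.80 ± 0.39 (SE; edgeR adjusted p = 0.0023) without that library and -3.31 ± 0.67 with it (adjusted p = 0.99). The sustained libraries were at 3.03, 4.41 and 5.61 CPM and the recovery libraries at 7.75, 5.44 and 4.11 CPM, between the acute libraries and control replicates 1 and 3. Of 16 fits and settings without control replicate 2, 15 called this transcript, and the exception was the fit that also lacked acute replicate 3 (edgeR adjusted p = 0.056). Of 17 fits and settings with all libraries or with 1 left out, DESeq2, edgeR's exact test and the fit without control replicate 2 called it, 3 in all. The settings reuse the same libraries, and the transcript was chosen for its small p in the fit without control replicate 2. These counts of calls are therefore not independent support. Another 3 transcripts in the table, from other genes of the same Trinity component, had log2 differences of 0.31, 0.42 and -0.25 with all libraries and of 0.06, -0.14 and -0.01 without control replicate 2, so none moved with it.

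TRINITY_DN118139_c1_g2_i1 was the higher transcript with the smallest unadjusted p in that fit, ahead of TRINITY_DN191068_c4_g2_i10. It had 33, 31 and 13 counts in the acute libraries, at 1.26, 1.41 and 0.57 CPM, and 0, 7 and 1 counts in control replicates 1, 2 and 3, at 0, 0.567 and 0.0389 CPM. The count of 0 in control replicate 1 allows a level of up to 0.12 CPM, taken as 3 counts in that library. Control replicate 2 was level with acute replicate 3, and the other 2 controls were far below. Over the 3 acute libraries and control replicates 1 and 3, 77 counts against 1 gave a ratio of 55.1 per scaled total, with a 95% exact interval of 9.6 to 2200 that covers counting error only. The transcript did not pass the quasi-likelihood test (edgeR adjusted p = 0.89 without control replicate 2 and 0.99 with it), and edgeR's exact test called it without that library (adjusted p = 0.018). It was at 0.438, 0.882 and 0.494 CPM in the sustained libraries and at 0.0987, 0.343 and 0.288 CPM in the recovery libraries, and the lowest recovery value, from 2 counts, is below what the 0 in control replicate 1 allows.

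**Figure D4:**
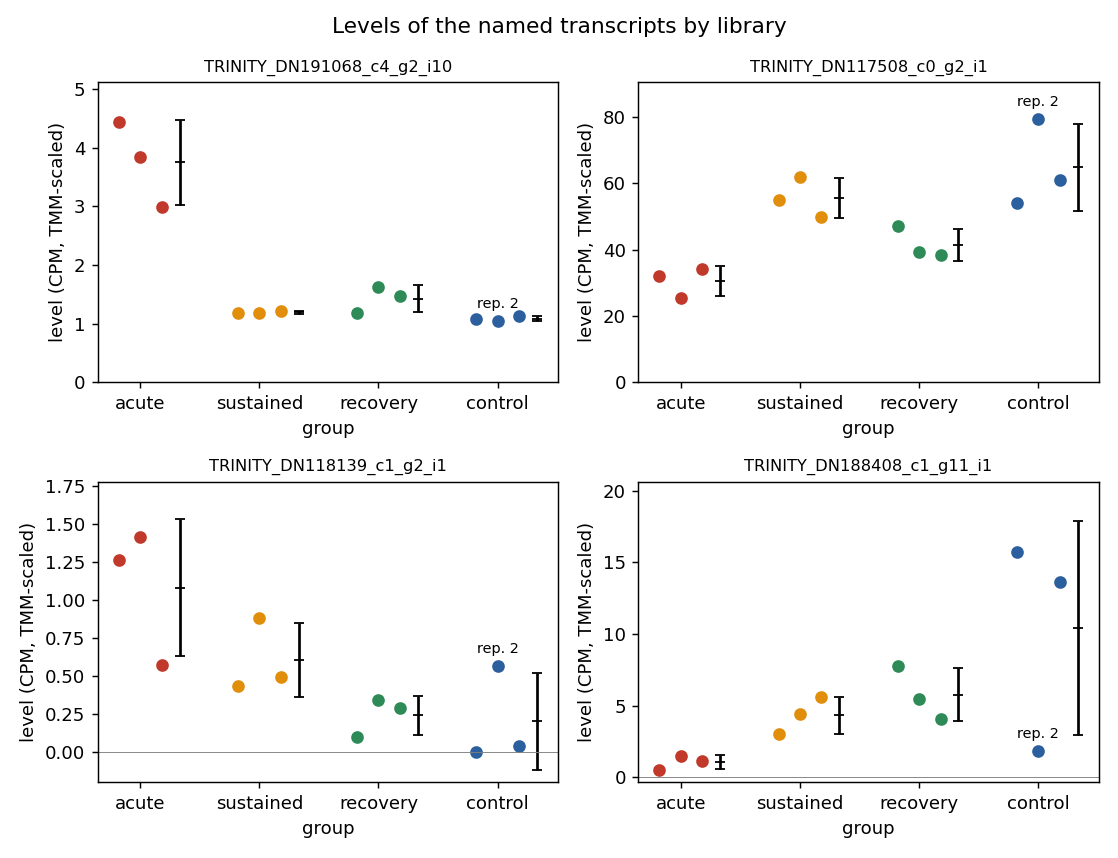
Level (CPM after TMM scaling, linear axes) of the 4 named transcripts in each library of the acute, sustained, recovery and control groups, with the mean and SD of each group (n = 3) beside the points and control replicate 2 marked. In the upper panels all acute libraries stand apart from all controls, at 2.98 to 4.43 against 1.05 to 1.13 CPM and at 25.5 to 34.1 against 54.1 to 79.5 CPM, and in the lower panels control replicate 2 lies beside the acute libraries, at 0.567 and 1.86 CPM.

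Few transcripts separated the groups by a wide gap. All 3 acute libraries lay above all 3 controls for 1869 transcripts (4.56% of those tested) and below them for 1725 (4.21%), or 3594 in all (8.78%). The nearest libraries of opposite groups were more than 2-fold apart, after adding 0.5 CPM, for 1 of the higher and 0 of the lower transcripts. With this addition the gap cannot pass 2-fold where the lowest library of the higher group is at 0.5 CPM or less. Of the tested transcripts, 13011 had a mean under 1 CPM. Without control replicate 2 the groups, now 3 against 2 libraries, did not overlap for 9447 transcripts (22.2%), and the gap passed 2-fold for 18 higher and 13 lower ones. A random order of libraries puts every acute library above every control in 1 of 20 splits with all libraries, and below them as often. Without control replicate 2 it does so in 1 of 10 splits for each direction. Scaling by library totals alone gave 2299 with all libraries.

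Presence in a single group was rare and, with all libraries, rested on small counts. Of all 44985 transcripts, 17 had counts in each acute library and 0 in each control, with a median of 9 counts over the 3 acute libraries and at most 55. In the opposite direction 2 transcripts were counted in each control and in no acute library, each with 14 counts in all. These numbers were 77 and 26 without control replicate 2, with a median of 22 counts and at most 617 over the acute libraries, and a median of 8 and at most 136 over both controls. Of those 77, 60 had counts in control replicate 2.

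The largest fitted differences often rested on 1 library. With all libraries, 224 transcripts were fitted more than 4-fold higher in the acute group and 80 more than 4-fold lower. Together these were 304 transcripts (0.74% of those tested), and 253 of them had a mean under 1 CPM. Of the 224, 79 had over 66.7% of the acute CPM in a single library, most often acute replicate 1 (39 transcripts). Of the 80 lower ones, 36 had as large a part of the control CPM in a single library, most often control replicate 3 (16 transcripts). How often a single library held as large a part over all tested transcripts was not computed. Without control replicate 2, 842 transcripts were fitted more than 4-fold higher and 205 more than 4-fold lower. Together these were 1047 transcripts (2.46% of those tested), and 877 of them had a mean under 1 CPM. That fit also tested more transcripts of low level, with 14871 under 1 CPM against 13011 with all libraries. Acute replicate 3 alone held over 66.7% of the acute CPM for 166 of the 842.

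These 166 transcripts were high in a few libraries of different groups. Their median level was 0.477, 0.0456 and 3.51 CPM in acute replicates 1, 2 and 3, and 0.0799, 2.74 and 0.039 CPM in control replicates 1, 2 and 3. Recovery replicate 2 stood at 1.82 CPM, and the other recovery and the sustained libraries at 0.0494 to 0.0896 CPM. The filter of the fit without control replicate 2 asked for counts in at least 2 libraries. A library besides acute replicate 3 thus had to hold counts, so the level of recovery replicate 2 was not free of the choice. The choice also made control replicates 1 and 3 low and acute replicate 3 high, and left control replicate 2 free. That library was above acute replicate 3 for 73 of the 166, and both were the highest 2 of all 12 libraries for 94. What sets these libraries apart was not tested. In total they made up 0.217% of the counts of acute replicate 3 and 0.219% of those of control replicate 2. None passed the test without control replicate 2, where their median fitted log2 difference was 4.38, and with that library it was 0.39 over the 152 that could be tested.

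The position of each library was also examined on transcripts chosen without it. For this, each library was left out in turn, transcripts at an unadjusted p under 0.05 were taken from the fit without it, and its level was set against the means of the remaining libraries of its own group and of the other group. Acute replicate 3 lay nearer to the control mean for 79.1% of 3141 such transcripts, beside 60.7% of all tested. Control replicates 1, 2 and 3 lay nearer to the acute mean for 67.5% of 1863, 69.9% of 2128 and 67.8% of 1927, beside 56.7%, 54.9% and 57.3% of all tested. Acute replicates 1 and 2 lay nearer to the control mean for 42.8% of 797 and 43.7% of 1126, beside 43.8% and 43.9%. Hence 4 of the 6 libraries sat more often with the other group, and acute replicates 1 and 2 more often with their own, by about the same share as over all transcripts. By direction, acute replicate 1 was nearer to the control mean for 32.6% of 371 higher and 51.6% of 426 lower transcripts, and acute replicate 2 for 43.4% of 662 and 44.2% of 464. The mean of the other group is taken over 3 libraries and that of the own group over 2. Choice by a small p can push the mean over 2 libraries further out, which would place a left-out library nearer to the other group. How far it did so here was not tested. The shares over all transcripts involve no such choice and do not correct for it. Whether the left-out library carried the differences therefore cannot be decided from these shares.

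**Figure D5:**
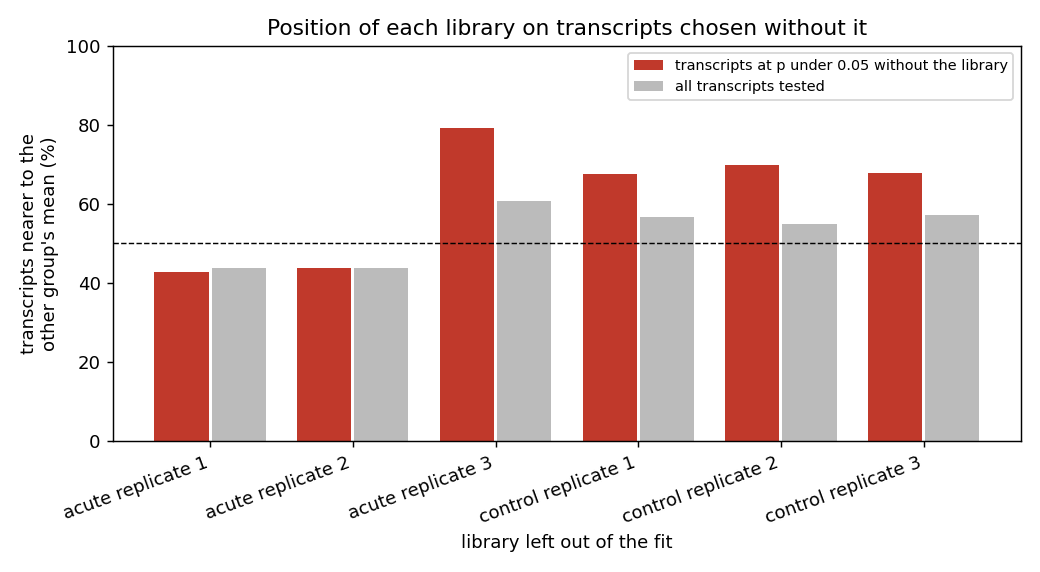
Share of transcripts (%) for which a library left out of the fit lay nearer to the mean of the other group, for transcripts at an unadjusted p under 0.05 in the fit without it (red) and for all tested transcripts (grey), with the 3 acute libraries left of the 3 controls. The red bars reach 79.1% for acute replicate 3 and 67.5% to 69.9% for the controls, above the dashed line at 50%, and 42.8% and 43.7% for acute replicates 1 and 2.

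Summing isoforms changed little. Counts summed over the isoforms of an assembled gene gave 32886 genes to test, of which 0 (0%) passed edgeR's quasi-likelihood test and 1292 had an unadjusted p under 0.05. Its 1 call without control replicate 2 was TRINITY_DN188408_c1_g11, the gene of the transcript above (edgeR adjusted p = 0.0023). The share of each isoform within its gene was tested for the 6637 genes with at least 2 tested isoforms, and none differed between the groups (0%; edgeR's diffSpliceDGE with Simes p-values, lowest adjusted p = 1, 28 genes at an unadjusted p under 0.05). The 1596 transcripts at an unadjusted p under 0.05 came from 1569 genes. In 27 genes 2 isoforms were among them, which moved in the same direction in 26 genes and in opposite directions in 1.

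A last day at 17 °C also separates the sustained group from the recovery group, after a warm in place of a cool start, and this pair shares no library with the acute and control groups. The group moved before the last day was the warm one in the acute and control pair, and the cool one, recovery, in this pair. The last-day temperature and the move itself thus cannot be told apart across the pairs. The 845 transcripts higher in the acute group at an unadjusted p under 0.05 had a median log2 difference, sustained minus recovery, of 0.03, and the 751 lower ones of 0.02. The sign was the same in both pairs for 52.5% of the 845 and 46.2% of the 751, beside 49.2% of all tested. Among those at such a p both with and without control replicate 2, the sign was shared by 60.6% of 465 higher and 49.7% of 348 lower transcripts. The median sustained minus recovery difference of these 465 was 0.10, with 6 higher and 12 lower at an unadjusted p under 0.05. In the sustained against recovery pair 11 of the 845 were higher and 18 lower at an unadjusted p under 0.05, and of the 751, 11 were lower and 12 higher. In that pair 877 of all 40943 tested transcripts (2.14%) had such a p. Of these, 429 had the same direction as in acute against control and 448 the opposite. The difference between both effects of the last day was called for 0 of 40943 transcripts (0%; edgeR, lowest adjusted p = 1), with 1184 at an unadjusted p under 0.05. For TRINITY_DN188408_c1_g11_i1 the sustained minus recovery difference was -0.41 ± 0.60 (SE), and the difference between the effects was -2.90 ± 0.88, or -3.39 ± 0.51 without control replicate 2 (edgeR adjusted p = 1 and 0.26).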

How the data were processed

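RNA was extracted from whole adults and made into stranded poly(A)-selected libraries read as paired ends, per the labels' protocols. HTSeq 0.6.1, TopHat2 2.1.1, edgeR and Trim Galore 0.4.1 appear, with no role or order, in the submitters' processing notes. The deposited values are raw counts per assembled transcript, with an assembly and counting options not given in the sources used here. How reads shared by near-identical transcripts were counted is therefore unknown.

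Libraries were grouped by the labelled treatment. Replicate numbers follow the order of the samples and pair nothing. The labels name vessels but not the animals behind each library, so p-values measure the spread between libraries. The chi-square per degree of freedom between replicates was at least 22.7, where sampling noise alone gives about 1, so no replicates agreed within sampling noise. Counts were tested with edgeR 4.0.16 in R 4.3.3 by its quasi-likelihood test (robust, TMM scaling, minimum count 10 and total 15), with all 4 groups in 1 fit and 8 residual degrees of freedom, or 7 without control replicate 2. The biological coefficient of variation was 37.1% and 33.3% in these fits. Transcripts were called at a Benjamini-Hochberg adjusted p under 0.05. SEs are the log2 difference over the square root of F, and intervals rest on them. CPM values are counts scaled to a library's total after TMM correction. Distances used log2 CPM with a prior count of 2. Isoforms of a gene were taken from the identifiers.

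Other settings were DESeq2 1.42.0, edgeR's exact test, limma 3.58.1 voom with quality weights, other scalings and filters, thinning, and leaving out each library. Scripts were tested on simulated data. Plots were drawn with matplotlib 3.10.9. At most 2 higher and 2 lower transcripts were named, picked in each direction by smallest unadjusted p in each of both fits, with the most abundant one. The comparison, lists and rules were chosen with earlier results of these data known. The split of transcripts of 100 CPM or more, the position of left-out libraries, the transcripts high in acute replicate 3 and the gaps between groups were examined after values were seen.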

Additional observations from a re-analysis of the deposited data

How the results depend on the processing

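With all libraries, edgeR's quasi-likelihood test called 0 transcripts under RLE factors, library totals, both other filters, thinning, the 6 libraries alone and without the most abundant transcript, as did limma voom. DESeq2 called 3, edgeR's exact test 2, and leaving out 1 library gave 0 to 1, the 1 being without control replicate 2. The number at an unadjusted p under 0.05 was 760 with library totals alone, 957 with the 6 libraries alone and 797 to 3141 without 1 library. Without control replicate 2, DESeq2 called 16 and the exact test 4, leaving out a further library gave 0 to 3, and the remaining settings called 1. A second library left out of the controls leaves a single one, whose spread is assumed to be that of the other groups. The number at an unadjusted p under 0.05 was then 1036 with library totals alone and 1382 to 3060 without a further library. Of the 16 calls of DESeq2, 11 were higher and 5 lower, 4 spanned more than 10-fold within a group after adding 0.2 CPM, and in 11 control replicate 2 lay on the acute side. In 2 of the 16 both remaining controls had 0 counts, and the largest fitted log2 difference was 25.4 in size. The exact test without that library called 2 of the 16, limma voom 1, and DESeq2 with all libraries 3. Summed genes gave 0 to 1 calls, the 1 without control replicate 2. Isoform usage and the difference between last days gave 0 calls in each setting tried. Groups did not overlap for 9447 transcripts without control replicate 2 and for 2299 with library totals alone. With 3 against 2 libraries, groups fail to overlap more often by the order of libraries alone. The 4 named transcripts kept their direction in every setting tried, which their choice by smallest p in these same libraries made likely. The 41 lower transcripts of 100 CPM or more numbered 26 with DESeq2, 16 with the exact test and 86 with limma voom. The cause of these changes was not tested. No paired analysis was possible because the labels give no replicate number shared between groups.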
